A study of Mus musculus with 12 samples.

Results

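TREM receptors are small immunoglobulin-type receptors of myeloid cells. Trem1, Trem2, Trem3 and Treml4 have short cytoplasmic tails and signal through Tyrobp (DAP12), a membrane adaptor whose ITAM recruits the kinase Syk. Trem1 is known as an amplifier of inflammatory responses in neutrophils and monocytes, and Trem2 as a receptor for lipids and apoptotic cells in macrophages and microglia that restrains inflammatory cytokines. Here these 4 receptors and Tyrobp were taken from a count matrix of bone marrow-derived macrophages (BMDMs) by their names in its gene column, which gave 5 of 43453 genes. Where a gene had several transcripts, the transcript with the highest total was used. The genes were taken by name, but the set was chosen with earlier results of these data known. Measured counts decided which transcript stands for a gene.

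The matrix holds 12 libraries from C57BL/6 mice, 3 in each of 4 groups. All BMDMs had grown from bone marrow in M-CSF (50 ng/mL) over 7 days. They came from tlr4f/f mice, in which tlr4 is flanked by loxP sites, or from tlr4f/f-lysM-cre mice, in which Cre from the lysozyme 2 locus (Lyz2) deletes tlr4 in myeloid cells, and were left untreated (LPS-) or exposed to LPS at 1 µg/mL over 6 h (LPS+). All 4 groups therefore carry the floxed allele, and no group is wild type. Libraries held between 33577440 and 56445989 counts over the transcripts used, with a median of 45331248. The labels do not state that the 3 libraries of a group came from separate mice, so p-values measure only the spread between these libraries, which may be technical. In bulk RNA, fewer cells of a type and less RNA per cell cannot be told apart.

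The headings of the columns need a check before any direction is read. Tlr4, the targeted gene, was at 76.9, 146 and 121 CPM (counts scaled to library size by the TMM method) in the LPS- tlr4f/f columns and at 117, 94.7 and 116 CPM in the LPS- tlr4f/f-lysM-cre columns. It was at 31.2, 28.0 and 24.5 CPM in the LPS+ tlr4f/f columns and at 27.4, 24.4 and 24.7 CPM in the LPS+ tlr4f/f-lysM-cre columns. The lower values thus followed the heading LPS+ and not the heading lysM-cre. Lyz2, which carries the Cre insertion, was at 5952 to 23318 CPM in the 6 LPS- columns and at 10.4 to 75.3 CPM in the 6 LPS+ columns. Il1b, a cytokine induced by LPS, was at 1633 to 8222 CPM in the 6 columns headed lysM-cre and at 0.0749 to 6.94 CPM in the 6 columns headed tlr4f/f. The heading LPS- tlr4f/f-lysM-cre may therefore be exchanged with the heading LPS+ tlr4f/f, which the data alone cannot settle. Libraries are named below by their headings, and each comparison is given under both readings. With the headings exchanged, a difference between the lysM-cre and tlr4f/f columns reads as LPS against untreated, and a difference between the LPS+ and LPS- columns reads as tlr4f/f-lysM-cre against tlr4f/f.

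Trem1, Trem3, Treml4 and Trem2 lie on the plus strand of chromosome 17 in mm10, with Treml2 and Treml1, in a cluster of 134 kb. Trem1 (ENSMUSG00000042265.13) runs from 48232768 to 48246924, and Trem3 (ENSMUSG00000041754.5) starts 852 bases after its end and runs from 48247777 to 48258841. Treml4 (ENSMUSG00000051682.15) runs from 48264295 to 48275360 and Trem2 (ENSMUSG00000023992.14) from 48346401 to 48354147. A processed pseudogene, AC241601.2, lies on the minus strand within the span of Trem1, and its position was not compared with the exons of Trem1. Tyrobp (ENSMUSG00000030579.10) lies on the plus strand of chromosome 7 from 30413760 to 30417585, and Hcst, the adaptor DAP10, lies on the opposite strand 126 bases further. In the GENCODE transcripts of the members, no stretch of 31 bases was shared with another member, Treml1 or Treml2 (0 for each of the 5). The transcripts whose counts were used were not themselves compared.

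The bases upstream of the gene start were available for 3 of the 5 members, Trem1, Trem2 and Treml4, from RefSeq (GRCm38.p6). The gene start here is that of RefSeq, which for Trem1 and Treml4 lies upstream of the start given above. The bases are shown because, between the LPS+ groups, Trem1 and Treml4 were higher and Trem2 was lower in the lysM-cre columns, as described below. Between the LPS- groups the values of Trem1 and of Treml4 overlapped. Capitals mark matches to the motifs searched on both strands: GAGGAA for Ets factors such as PU.1, GGG followed by CC after any 5 bases for NF-kB, TGANTCA for AP-1, TTNCNNAA for C/EBP and GAAA repeated after any 2 bases for interferon response elements.
Trem1, chr17:48232489-48232712, plus strand: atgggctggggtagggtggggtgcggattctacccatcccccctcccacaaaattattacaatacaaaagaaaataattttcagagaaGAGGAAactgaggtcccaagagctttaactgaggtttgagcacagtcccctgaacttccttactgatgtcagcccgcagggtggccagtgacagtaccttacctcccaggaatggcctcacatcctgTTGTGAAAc
Trem2, chr17:48346151-48346400, plus strand: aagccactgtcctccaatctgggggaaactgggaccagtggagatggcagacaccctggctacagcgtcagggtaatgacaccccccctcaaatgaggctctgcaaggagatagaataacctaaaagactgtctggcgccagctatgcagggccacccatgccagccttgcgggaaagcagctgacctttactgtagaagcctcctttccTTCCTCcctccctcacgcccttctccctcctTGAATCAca
Treml4, chr17:48264045-48264199, plus strand: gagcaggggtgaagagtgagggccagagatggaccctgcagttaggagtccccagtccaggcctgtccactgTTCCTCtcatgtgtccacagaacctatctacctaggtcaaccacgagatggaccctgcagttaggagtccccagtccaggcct
The Ets letters occurred 1 time in each of the 3 windows. Windows of the same length hold them in 20.8% (Trem1), 23.3% (Trem2) and 15.1% (Treml4) of 32851 mouse promoters. The C/EBP letters occurred 1 time upstream of Trem1 and not in the other windows (34.6% of promoters in the window of Trem1). The AP-1 letters occurred 1 time upstream of Trem2, directly before the gene start (6.75% of promoters in that window). The NF-kB and interferon letters had 0 matches in these windows. A match is a description of the letters and not a binding site.

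**Figure D1:**
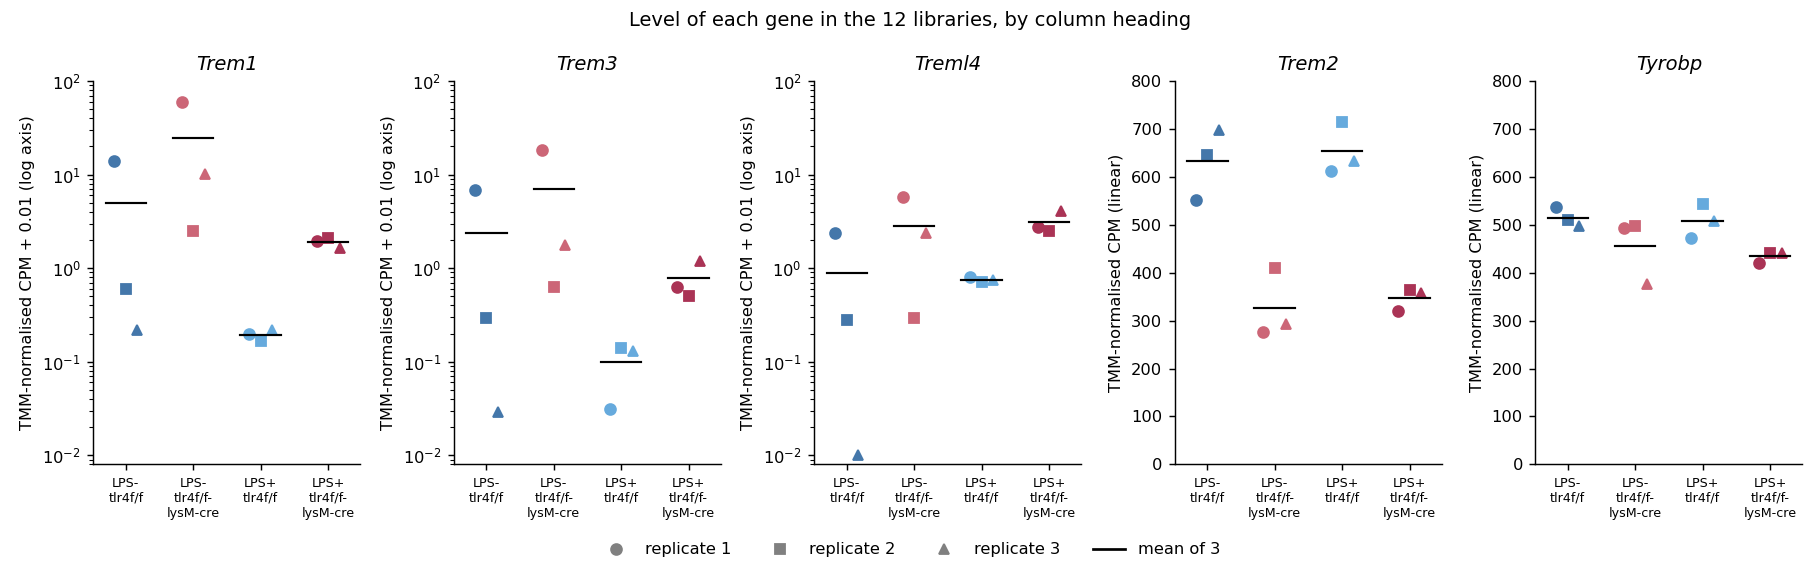
Level of each member in each of the 12 libraries (points, shaped by replicate number) and the mean of 3 (line), by column heading; Trem1, Trem3 and Treml4 are drawn on a log axis of CPM + 0.01, Trem2 and Tyrobp on a linear axis of CPM. Trem2 lies lower in every column headed lysM-cre (276 to 409 CPM) than in every column headed tlr4f/f (552 to 714 CPM), while Trem1 spreads over 0.206 to 13.9 CPM within the LPS- tlr4f/f columns.

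Tyrobp, the shared adaptor, lay between 377 and 544 CPM over the 12 libraries. It was at 537, 511 and 498 CPM in the LPS- tlr4f/f columns, at 493, 498 and 377 CPM in the LPS- tlr4f/f-lysM-cre columns, at 472, 544 and 507 CPM in the LPS+ tlr4f/f columns and at 420, 441 and 441 CPM in the LPS+ tlr4f/f-lysM-cre columns. The LPS+ groups did not overlap, and the LPS- groups did. Between the LPS+ groups Tyrobp was lower in the lysM-cre columns with a log2 difference of -0.22 (standard error 0.0597, adjusted p = 0.00721, edgeR quasi-likelihood test). This difference was 1.16-fold, which is below the fold change of 2 that the criteria for differentially expressed genes (DEGs) require together with an adjusted p below 0.01. Between the LPS- groups the log2 fold change was -0.19 (standard error 0.178, adjusted p = 0.440), and between the LPS+ and LPS- columns it was -0.01 (standard error 0.104) for tlr4f/f and -0.06 (standard error 0.133) for tlr4f/f-lysM-cre.

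Per kilobase of transcript, Trem2 had the highest level of the 4 TREM receptors in every library, and its levels were lower in the columns headed lysM-cre. They were 552, 647 and 698 CPM in the LPS- tlr4f/f columns and 276, 409 and 294 CPM in the LPS- tlr4f/f-lysM-cre columns. In the LPS+ columns they were 612, 714 and 634 CPM without lysM-cre in the heading and 321, 363 and 358 CPM with it. No library headed lysM-cre reached the lowest library headed tlr4f/f. The log2 fold change of lysM-cre against tlr4f/f columns was -0.96 (standard error 0.212, adjusted p = 0.0138) in the LPS- columns and -0.90 (standard error 0.0706, adjusted p = 2.434e-07) in the LPS+ columns. These are 1.95-fold and 1.87-fold, so Trem2 was under the 2-fold limit in both and is not counted as a DEG. Between LPS+ and LPS- columns Trem2 differed by 0.06 on the log2 scale (standard error 0.129, adjusted p = 0.793) for tlr4f/f and by 0.11 (standard error 0.163, adjusted p = 0.660) for tlr4f/f-lysM-cre, and these groups overlapped. As headed, this is less Trem2 mRNA in tlr4f/f-lysM-cre than in tlr4f/f BMDMs. With the headings exchanged, the same values read as less Trem2 mRNA after LPS, in either genotype.

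Trem1 was far lower than Trem2 and varied widely between the LPS- libraries. It was at 13.9, 0.589 and 0.206 CPM in the LPS- tlr4f/f columns, from 813, 37 and 11 counts, and at 60.2, 2.49 and 10.2 CPM in the LPS- tlr4f/f-lysM-cre columns, from 2245, 80 and 327 counts. In the LPS+ columns it was at 0.189, 0.155 and 0.208 CPM for tlr4f/f, from 6 to 12 counts, and at 1.96, 2.11 and 1.61 CPM for tlr4f/f-lysM-cre, from 73 to 85 counts. The highest and lowest libraries differed 67.7-fold and 24.2-fold in the LPS- groups, against 1.35-fold and 1.31-fold in the LPS+ groups. A wider spread of the LPS- libraries was not particular to Trem1. Over all genes with enough counts, the mean chi-square per gene between replicates was 185 to 375 in the LPS- groups. In the LPS+ groups it was 9.5 to 21.1. Within the LPS+ columns Trem1 was higher with the heading lysM-cre, by 3.33 on the log2 scale (standard error 0.316, adjusted p = 1.475e-06), and the groups did not overlap. Within the LPS- columns the log2 fold change was 2.30 with a standard error of 1.72 (adjusted p = 0.331), and the groups overlapped. It was 5.91 without replicate 1 of the tlr4f/f columns and 0.38 without replicate 1 of the lysM-cre columns, the extremes over the libraries left out. The LPS+ columns were lower than the LPS- columns with a log2 difference of -3.68 for tlr4f/f-lysM-cre (standard error 1.09, adjusted p = 0.0484), which misses the limit of 0.01, and it was between -4.21 and -1.75 (adjusted p = 0.0117 to 0.159) with 1 library left out, nearest to 0 without LPS- replicate 1. For tlr4f/f it was -4.70 (standard error 1.67, adjusted p = 0.158), and this value was between -5.26 and -1.08 when 1 library was left out, nearest to 0 without LPS- replicate 1.

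Trem3, a Tyrobp-coupled receptor beside Trem1, had the order of LPS- libraries that Trem1 had. It was at 6.79, 0.287 and 0.0187 CPM in the LPS- tlr4f/f columns and at 18.4, 0.623 and 1.74 CPM in the LPS- tlr4f/f-lysM-cre columns, so replicate 1 was the highest of each LPS- group. In the LPS+ columns it was at 0.0210, 0.129 and 0.121 CPM for tlr4f/f, which are 1, 5 and 7 counts, and at 0.621, 0.493 and 1.19 CPM for tlr4f/f-lysM-cre, which are 27, 18 and 54 counts. The LPS+ groups did not overlap, with a log2 difference of 3.08 for lysM-cre against tlr4f/f (standard error 0.584, adjusted p = 0.000568). The other differences of Trem3 were not past the criteria: 1.55 on the log2 scale for lysM-cre against tlr4f/f in the LPS- columns (standard error 1.87, adjusted p = 0.545) and -3.16 for LPS+ against LPS- in the lysM-cre columns (standard error 1.23, adjusted p = 0.104). With 1 library left out the first ranged from -0.98 to 5.44 and the second from -3.69 to -0.62 (adjusted p = 0.0380 to 0.488), with -0.98 and -0.62 both found without replicate 1 of the LPS- tlr4f/f-lysM-cre columns and 5.44 without replicate 1 of the LPS- tlr4f/f columns. Between the tlr4f/f columns Trem3 was below the count filter and was not tested.

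Treml4, a receptor of the same cluster that has been linked to TLR7 responses, was at 2.35, 0.271 and 0 CPM in the LPS- tlr4f/f columns (137, 17 and 0 counts; a count of 0 allows up to 3 counts) and at 5.69, 0.280 and 2.36 CPM in the LPS- tlr4f/f-lysM-cre columns. It was at 0.799, 0.696 and 0.728 CPM in the LPS+ tlr4f/f columns and at 2.74, 2.49 and 4.05 CPM in the LPS+ tlr4f/f-lysM-cre columns. The LPS- groups overlapped in part, and the LPS+ groups were apart. The log2 fold change of lysM-cre against tlr4f/f was 2.07 in the LPS+ columns (standard error 0.249, adjusted p = 1.274e-05) and 1.66 in the LPS- columns (standard error 1.66, adjusted p = 0.463). The value in the LPS- columns was 4.29 without replicate 1 of the tlr4f/f columns and 0.61 without replicate 1 of the lysM-cre columns, the extremes over the libraries left out. Unlike Trem1 and Trem3, Treml4 had point estimates near 0 between LPS+ and LPS- columns, at -0.23 for tlr4f/f (standard error 1.37) and 0.15 for tlr4f/f-lysM-cre (standard error 0.851), with errors too wide to say that it did not differ.

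**Figure D2:**
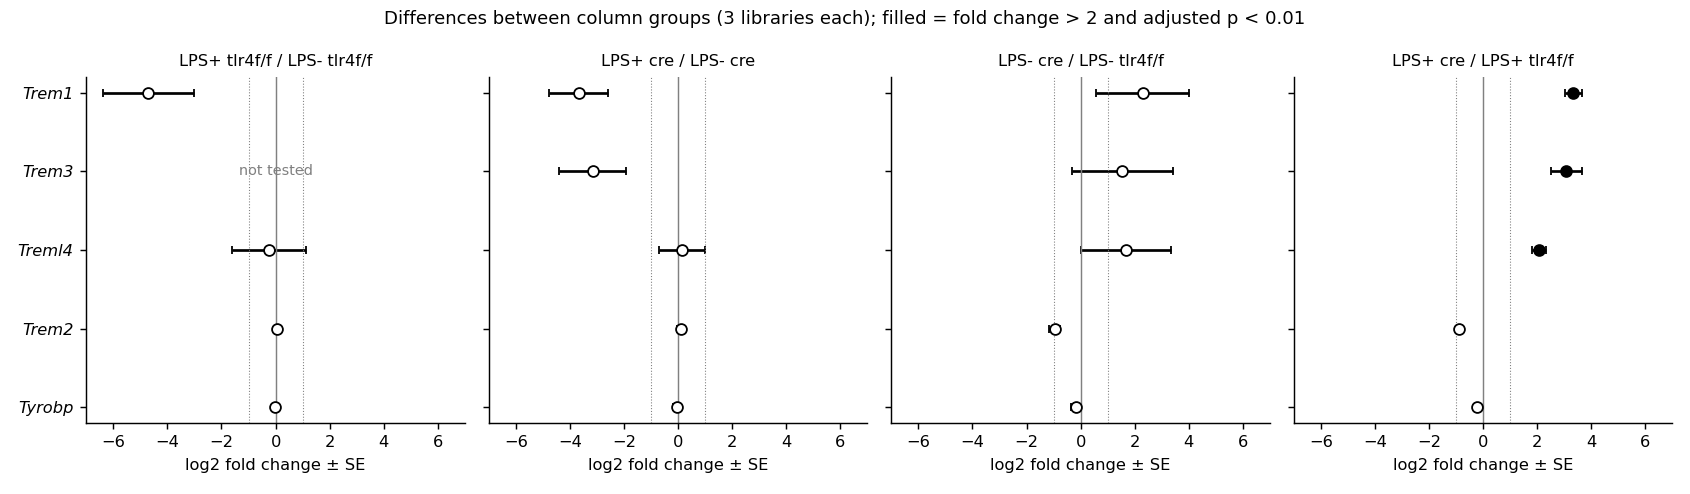
Log2 fold change with its standard error (bars) of each member in the 4 comparisons of column groups, where cre stands for tlr4f/f-lysM-cre; filled points are DEGs, and dotted lines mark a fold change of 2. Filled points appear only in the LPS+ columns, for Trem1 (3.33), Trem3 (3.08) and Treml4 (2.07), while Trem2 lies close to the 2-fold line in both comparisons of cre with tlr4f/f.

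Over the 5 members, 3 were DEGs between the LPS+ groups (Trem1, Trem3 and Treml4, each higher in the lysM-cre columns), where 21.8% of 14551 genes tested were DEGs and 10.8% were DEGs with a higher value in the lysM-cre columns. An adjusted p below 0.05 was reached by all 5 members, beside 61.4% of the genes tested, and the groups did not overlap for any of the 5, beside 67.5% of the genes tested. Both shares of the background are large, so neither count sets the members apart. As headed, this comparison is the genotype difference with LPS. With the headings exchanged, it is the LPS response of tlr4f/f-lysM-cre BMDMs. Trem1, Trem3 and Treml4 kept their direction in a single fit of all 12 libraries, but their adjusted p rose to 0.147, 0.247 and 0.253, since that fit shares its estimate of the spread with the LPS- columns.

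Between the LPS- groups 0 of 5 members were DEGs by edgeR, DESeq2 or limma voom, where 17.1% of 14649 genes tested were by edgeR. Trem2 alone had an adjusted p below 0.05 (37.3% of the genes tested) and no overlap (54.1%). It was also the only member with an unadjusted p below 0.05, beside 7011 of the 14649 genes tested. As headed, this is the genotype difference without LPS, and with the headings exchanged it is the LPS response of tlr4f/f BMDMs. Replicate 1 of each LPS- group stood apart for Trem1 and Trem3. Without replicate 1 of both groups, which was added after the data had been seen, the log2 fold change of Trem1 was 3.99 (adjusted p = 0.0472), that of Trem3 was 2.92 (adjusted p = 0.166), that of Treml4 was 3.25 (adjusted p = 0.258) and that of Trem2 was -0.94 (adjusted p = 0.0834), and 0 members were DEGs.

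Between the LPS+ and LPS- columns, 0 of 5 members were DEGs by edgeR for tlr4f/f-lysM-cre, where 6.09% of 14245 genes tested were. At an unadjusted p below 0.05 there were 2, Trem1 and Trem3, beside 5746 of the 14245 genes tested. Trem1 had an adjusted p below 0.05 (26.7% of the genes tested) and was the only member with no overlap (48.0%). DESeq2 called Trem1 and Trem3 here (adjusted p = 0.00514 and 0.00618), and limma voom called 0 members. Of the 14245 genes tested, DESeq2 called 2006 and limma voom 979. For tlr4f/f, 0 of the 4 members tested were DEGs by edgeR, DESeq2 or limma voom, 1 (Trem1) had an unadjusted p below 0.05, and 0% of 14712 genes tested were DEGs by edgeR. Over all genes there were 3626 with an unadjusted p below 0.05, and by the same criteria DESeq2 called 464 genes and limma voom 26. As headed, these are the LPS responses of the genotypes. With the headings exchanged, they are genotype differences with LPS (lysM-cre columns) and without LPS (tlr4f/f columns).

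The interaction of genotype and LPS is the same contrast of the 4 groups under both readings. By edgeR, DESeq2 and limma voom 0 of 5 members were DEGs in it and by edgeR 0 had an unadjusted p below 0.05. Of 15792 genes tested by edgeR, 0.994% were DEGs and 3692 genes had an unadjusted p below 0.05. Trem2 had an interaction of 0.04 on the log2 scale (standard error 0.227, adjusted p = 0.931) and Tyrobp of -0.05 (standard error 0.175, adjusted p = 0.891). For Trem1, Trem3 and Treml4 it was 1.02, 1.51 and 0.39, with standard errors of 2.02, 2.32 and 1.72. At this spread of the LPS- libraries, differences of several-fold were not detectable in these 3 receptors.

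Receptor and adaptor levels were set against each other per kilobase of transcript. Tyrobp had means of 905 and 893 CPM per kilobase in the tlr4f/f columns (LPS- and LPS+) and of 801 and 763 CPM per kilobase in the lysM-cre columns. Trem2 had means of 552 and 570 CPM per kilobase in the tlr4f/f columns and of 285 and 303 CPM per kilobase in the lysM-cre columns. As a share of Tyrobp in the same library, Trem2 was 51.1% to 69.6% in the LPS- tlr4f/f columns and 62.0% to 65.2% in the LPS+ tlr4f/f columns. It was 27.8% to 40.8% in the LPS- tlr4f/f-lysM-cre columns and 38.0% to 40.9% in the LPS+ ones. The shares of the lysM-cre columns all lay below those of the tlr4f/f columns. These shares depend on the choice of a single transcript: with counts summed over the transcripts of a gene, the mean in the LPS- tlr4f/f columns, not divided by length, went from 632 to 362 CPM for Trem2, which has 2 transcripts in the table, and from 515 to 151 CPM for Tyrobp, which has 1. Trem1 was at most 2.30% of Tyrobp in any library, and its range in the LPS+ columns was 0.00535% to 0.00771% for tlr4f/f and 0.0689% to 0.0900% for lysM-cre. Per kilobase, Trem2 exceeded Trem1 8039-fold to 12189-fold in the LPS+ tlr4f/f columns and 433-fold to 585-fold in the LPS+ tlr4f/f-lysM-cre columns. In the LPS- tlr4f/f columns the ratio was 105, 2895 and 8937, and in the LPS- tlr4f/f-lysM-cre columns it was 12.1, 433 and 76.3. Trem2 mRNA was thus above Trem1 mRNA in all 12 libraries.

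**Figure D3:**
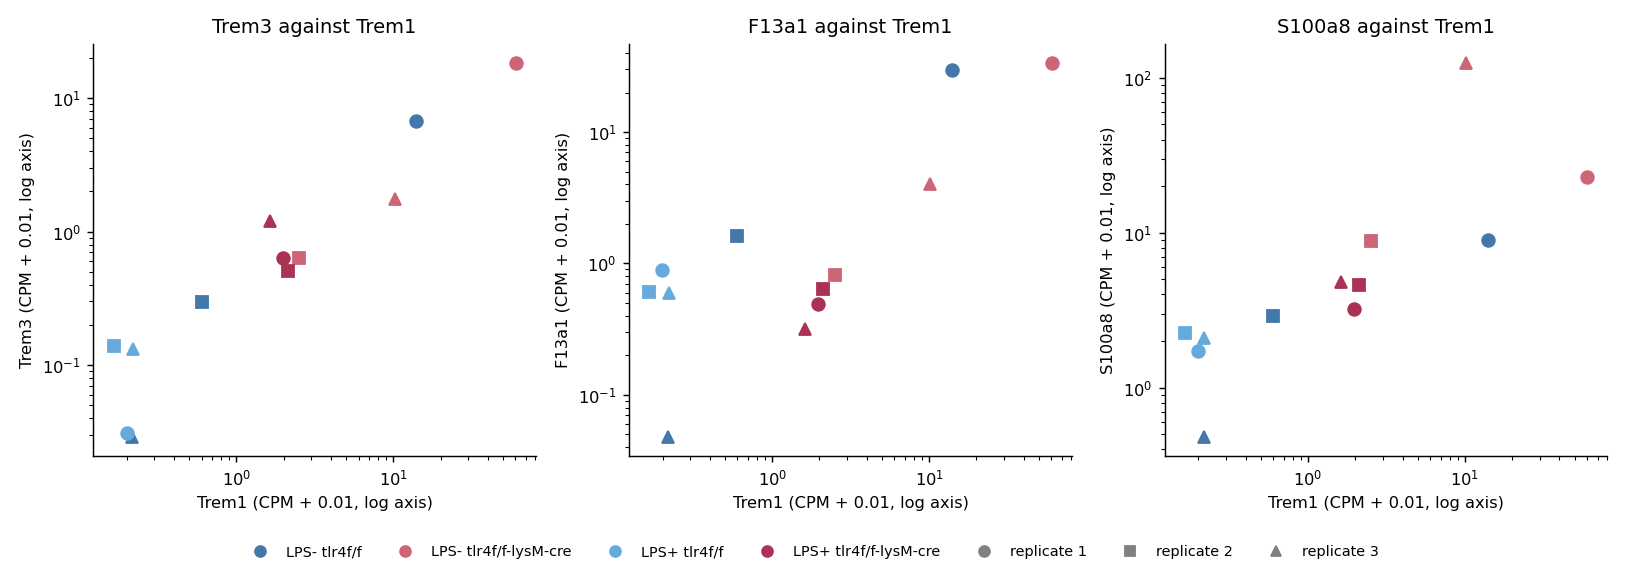
Level of Trem3, F13a1 and S100a8 (CPM + 0.01, log axis) against that of Trem1 in each of the 12 libraries, coloured by column heading and shaped by replicate number. The libraries with the highest Trem1, replicate 1 of each LPS- group (13.9 and 60.2 CPM), also have the highest Trem3 and F13a1, while the highest S100a8 (125 CPM) is in replicate 3 of the LPS- tlr4f/f-lysM-cre columns. Between the LPS+ groups the mean of Trem1 is higher in the lysM-cre columns (1.89 against 0.184 CPM), while that of F13a1 is lower (0.474 against 0.689 CPM).

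Because Trem1 and Trem3 are also expressed by neutrophils and monocytes, marker lists of these and other cells were read beside them. The 7 macrophage markers (Adgre1 the highest over the 12 libraries, with Csf1r above it in both tlr4f/f groups) had at least 10 counts in every library, and their summed level was 4441 to 13687 CPM. The summed level of the 12 neutrophil markers was 30.1 to 57.5 CPM in the LPS- tlr4f/f columns and 133 to 564 CPM in the LPS- tlr4f/f-lysM-cre columns, and with LPS+ in the heading 26.1 to 30.2 CPM and 115 to 126 CPM. Csf3r, the receptor of G-CSF, was the highest of them over the 12 libraries, but not in the LPS- tlr4f/f columns, where the mean of Mmp8 was higher. The defining neutrophil marker Ly6g had 0 counts in 11 libraries and 1 count in the other, and Retnlg had at most 1 count in any library. The 5 monocyte markers summed to 37.6 to 403 CPM and 22.0 to 95.2 CPM in the LPS- columns without and with lysM-cre, and to 71.8 to 83.8 CPM and 110 to 167 CPM in the LPS+ columns. Cx3cr1 was the highest of them over the 12 libraries, but it was below Nr4a1 in the LPS- tlr4f/f-lysM-cre columns and below Ccr2 in the LPS+ tlr4f/f columns. By library the sum was 238, 37.6 and 403 CPM in the LPS- tlr4f/f columns, an order that Trem1 did not have (its lowest library had the highest sum), and 95.2, 22.0 and 46.3 CPM in the LPS- tlr4f/f-lysM-cre columns, the order that Trem1 had. F13a1, a monocyte marker named after its values were seen, was at 29.9, 1.61 and 0.0375 CPM in the LPS- tlr4f/f columns and at 33.7, 0.810 and 4.01 CPM in the LPS- tlr4f/f-lysM-cre columns, with the order of libraries within each LPS- group that Trem1 had. S100a8, a neutrophil and monocyte marker, was at 8.93, 2.90 and 0.468 CPM and at 23.0, 8.88 and 125 CPM in these columns. In the LPS+ tlr4f/f and tlr4f/f-lysM-cre columns the means of Trem1 were 0.184 and 1.89 CPM. Those of F13a1 went the other way, at 0.689 and 0.474 CPM, and those of S100a8 were 2.02 and 4.18 CPM. Between the LPS- groups 0 of the 9 neutrophil and 0 of the 5 monocyte markers tested were DEGs by edgeR, and 3 and 4 had an unadjusted p below 0.05. Of all genes tested there, 7011 of 14649 had such a p. Between the LPS+ groups 3 of the 8 neutrophil markers tested were higher and 2 lower in the lysM-cre columns, and 1 of 5 monocyte markers was higher and 1 lower. The share of DEGs over all genes tested was 17.1% between the LPS- groups and 21.8% between the LPS+ groups. Dendritic cell markers summed to 0.225 to 13.1 CPM over all libraries, and 2 of the 3 tested were higher between the LPS+ groups. Osteoclast markers summed to 119 to 822 CPM, with Mmp9 the highest over the 12 libraries and Atp6v0d2 above it in both tlr4f/f groups, and 1 of the 6 tested was higher and 1 lower. The part of such cells in the levels of the TREM genes was not tested.

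Other receptors that use Tyrobp or related adaptors, and inhibitory receptors paired with them, were read from a list of 19 genes, of which 17 were in the table. In this list and the next ones, genes named beyond the 2 largest changes of a comparison were chosen after their values were seen. Between the LPS+ groups 5 of the 15 tested were higher in the lysM-cre columns (Pilra, Klrk1, Pilrb1, Pilrb2 and Clec5a) and 5 were lower (Siglec15, Cd300lf, Treml1, Sirpb1a and Cd300lb). Of all genes tested between these groups, 21.8% were DEGs. The median log2 fold change of the list was -0.58, beside -0.02 over all genes tested. Pilra, an inhibitory receptor, was at 18.6, 21.3 and 17.4 CPM in the LPS+ tlr4f/f columns and at 223, 232 and 242 CPM in the LPS+ tlr4f/f-lysM-cre columns (log2 fold change 3.62, standard error 0.0762, adjusted p = 2.531e-12). Its activating partner Pilrb1, which signals through Tyrobp, was higher too (log2 fold change 3.18, standard error 0.113, adjusted p = 1.682e-10). Clec5a, a Tyrobp-coupled lectin, was higher by 1.78 on the log2 scale (standard error 0.0738, adjusted p = 1.083e-09). Siglec15, a Tyrobp-coupled receptor of osteoclasts, had 25 to 77 counts in the LPS+ tlr4f/f columns and 0 to 3 counts in the LPS+ tlr4f/f-lysM-cre columns. Treml1, in the same cluster as the members, was at 2.71, 2.96 and 2.45 CPM in the LPS+ tlr4f/f columns and at 0.276, 0.439 and 0.641 CPM in the LPS+ tlr4f/f-lysM-cre columns (log2 fold change -2.56, standard error 0.293, adjusted p = 8.269e-06), which is the direction opposite to Trem1, Trem3 and Treml4.

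Cd300lb, an activating receptor that also pairs with Tyrobp, was at 256, 304 and 256 CPM in the LPS- tlr4f/f columns and at 24.4, 44.8 and 33.3 CPM in the LPS- tlr4f/f-lysM-cre columns. With Nfam1, a receptor with an ITAM of its own (log2 fold change -2.38, standard error 0.293, adjusted p = 0.00197), it made up the 2 DEGs of the 13 list members tested between the LPS- groups (log2 fold change -3.01, standard error 0.252, adjusted p = 0.000673). In the LPS+ tlr4f/f-lysM-cre columns Cd300lb was at 188, 161 and 196 CPM. Between LPS+ and LPS- columns of tlr4f/f-lysM-cre, Cd300lb and Nfam1 were higher, and Cd300lf (an inhibitory receptor, log2 fold change -4.01, standard error 0.387, adjusted p = 0.00176), Sirpb1a (log2 fold change -3.56, standard error 0.514, adjusted p = 0.00551) and Treml2 were lower, among 14 tested. Without any of the 3 LPS+ tlr4f/f-lysM-cre libraries in turn, 0 of them were DEGs. Over all genes tested, the DEGs were 17.1% between the LPS- groups and 6.09% between LPS+ and LPS- columns of tlr4f/f-lysM-cre. Between the tlr4f/f columns 0 of 14 were DEGs by edgeR (6 had an unadjusted p below 0.05), 3 by DESeq2 and 0 by limma voom. Of all 14712 genes tested there, 3626 had such a p by edgeR, and DESeq2 called 464 and limma voom 26.

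Downstream of Tyrobp, 28 adaptors and signalling genes were tested. Between the LPS- groups 7 were higher in the lysM-cre columns (Malt1, Lcp2, Src and Syk among them) and 2 lower (Inpp5d and Nfatc1), and between the LPS+ groups 8 were higher and 2 lower. Over all genes tested, 17.1% were DEGs between the LPS- groups and 21.8% between the LPS+ groups. The medians of the list were 0.57 and 0.45 on the log2 scale, beside -0.08 and -0.02 over all genes tested. Syk, the kinase that binds the ITAM of Tyrobp, was at 253, 364 and 293 CPM in the LPS- tlr4f/f columns and at 1670, 1899 and 1423 CPM in the LPS- tlr4f/f-lysM-cre columns. In the LPS+ columns it was at 285, 305 and 294 CPM and at 1594, 1606 and 1527 CPM. The groups headed lysM-cre lay above those headed tlr4f/f, with log2 fold changes of 2.44 (standard error 0.236, adjusted p = 0.00100) in the LPS- columns and 2.43 (standard error 0.0549, adjusted p = 4.372e-12) in the LPS+ columns. Lcp2 (SLP-76), an adaptor downstream of Syk, was higher in the lysM-cre columns by 3.92 (standard error 0.517, adjusted p = 0.00256) and 3.58 (standard error 0.0575, adjusted p = 6.817e-13) on the log2 scale. Malt1, the paracaspase that acts with Card9 and Bcl10, was higher by 4.05 (standard error 0.432, adjusted p = 0.00128) in the LPS- columns, and Src by 2.78 (standard error 0.0734, adjusted p = 1.324e-11) in the LPS+ columns. Between LPS+ and LPS- columns Src alone was a DEG for tlr4f/f-lysM-cre (log2 fold change -1.54, standard error 0.153, adjusted p = 0.00190), and it was not when any of the LPS+ tlr4f/f-lysM-cre libraries was left out. Of all genes tested there, 6.09% were DEGs. For tlr4f/f 0 of 28 were DEGs by edgeR (9 had an unadjusted p below 0.05), 1 by DESeq2 and 0 by limma voom. Of all 14712 genes tested for tlr4f/f, 3626 had such a p by edgeR, and DESeq2 called 464. Tyrobp mRNA itself differed by 1.14-fold and 1.16-fold in the comparisons in which Syk was higher.

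**Figure D4:**
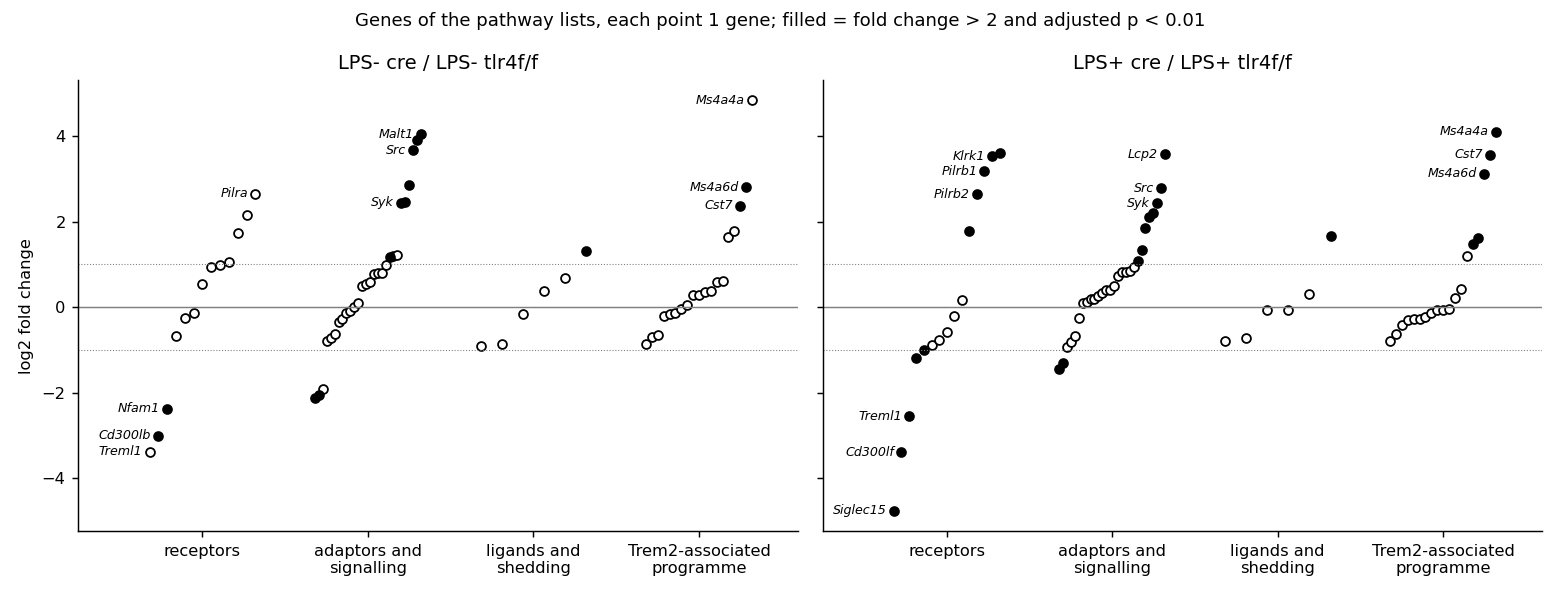
Log2 fold change of lysM-cre against tlr4f/f columns for the genes tested in 4 lists, in LPS- columns (left) and LPS+ columns (right), where each point is 1 gene, filled points are DEGs and some genes with large changes are named. Adaptors and signalling genes lie more often above 0 (18 of 28 and 22 of 28) and receptors lie on both sides. The median over all genes tested is -0.08 in the LPS- columns and -0.02 in the LPS+ columns.

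Of 7 ligands of TREM receptors and proteases that shed them, 6 were tested, and Adam17 was the DEG. This protease, which cleaves the ectodomain of TREM2, was at 218, 211 and 251 CPM in the LPS- tlr4f/f columns and at 580, 697 and 420 CPM in the LPS- tlr4f/f-lysM-cre columns (log2 fold change 1.31, standard error 0.221, adjusted p = 0.00548). Between the LPS+ groups it was higher by 1.67 on the log2 scale (standard error 0.0604, adjusted p = 1.978e-10). Over all genes tested, 17.1% were DEGs between the LPS- groups and 21.8% between the LPS+ groups. The call between the LPS- groups was lost when any library but replicate 3 of the tlr4f/f-lysM-cre columns was left out. Adam10, the other protease of the list, was not a DEG. Its means were 130 and 117 CPM in the LPS- tlr4f/f and tlr4f/f-lysM-cre columns, and 166 and 157 CPM in the LPS+ ones. In the columns in which Trem2 mRNA was lower, Adam17 mRNA was thus higher and Adam10 mRNA was not. A link between Trem2 and these proteases was not tested. Between the LPS+ and LPS- columns 0 of the 6 were DEGs by edgeR, DESeq2 or limma voom in either genotype, and 3 of the 6 had an unadjusted p below 0.05 in each. Of all genes tested by edgeR, 3626 of 14712 had such a p for tlr4f/f and 5746 of 14245 for tlr4f/f-lysM-cre.

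Among 20 genes of lipid handling and phagocytosis that are known to go with Trem2 in macrophages and microglia, 19 were tested. Between the LPS+ groups 5 were higher in the lysM-cre columns (Ms4a4a, Cst7, Ms4a6d, Abca1 and Ms4a7) and 0 lower, and between the LPS- groups Ms4a6d and Cst7 were higher (log2 fold changes 2.81 and 2.38, adjusted p = 0.00823 and 0.00945), of which 0 were DEGs when any library but replicate 3 of the tlr4f/f columns was left out. The medians of this list were -0.06 and 0.29, beside -0.02 and -0.08 over all genes tested. The share of DEGs over all genes tested was 21.8% between the LPS+ groups and 17.1% between the LPS- groups. It was 6.09% for LPS+ against LPS- columns of tlr4f/f-lysM-cre. Ms4a4a, a tetraspan protein, was at 0.400, 0.541 and 0.173 CPM in the LPS+ tlr4f/f columns and at 6.35, 5.35 and 6.57 CPM in the LPS+ tlr4f/f-lysM-cre columns (log2 fold change 4.10, standard error 0.288, adjusted p = 9.328e-08). Cst7, the inhibitor cystatin F, was higher by 3.57 (standard error 0.280, adjusted p = 8.447e-07). Apoe, Lpl, Gpnmb and Spp1, which are often named with Trem2, were not DEGs in any comparison. For LPS+ against LPS- columns, Ms4a4a and Ms4a6d were lower for tlr4f/f-lysM-cre (log2 fold changes -4.40 and -1.49, adjusted p = 0.00572 and 0.00284), a call lost when any of the LPS+ tlr4f/f-lysM-cre libraries was left out. For tlr4f/f 0 of 19 were DEGs by edgeR (5 had an unadjusted p below 0.05), 4 by DESeq2 and 0 by limma voom. Of all 14712 genes tested for tlr4f/f, 3626 had such a p by edgeR, and DESeq2 called 464.

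The genes whose pattern over the 12 libraries was most like each member were read by Pearson's r of log2 CPM among 15791 genes. These values are descriptions, since the 12 points share 4 groups and the same libraries. For Trem2 the closest were Pink1 (r = 0.991), Csnk1g2 (r = 0.990) and Ttyh3 (r = 0.986). Pink1 was at 47.4 to 64.7 CPM in the columns headed tlr4f/f and at 20.5 to 33.0 CPM in those headed lysM-cre, a split like that of Trem2. For Trem1 they were Dvl1 (r = 0.965), Zbtb7c (r = 0.964) and Antxr1 (r = 0.964), of which Zbtb7c had at most 0.510 CPM. Trem1 was itself among the 3 closest to Trem3 (r = 0.961), with Gm39701 (r = 0.963) and Tagln (r = 0.960). Treml4 was closest to Mmp9 (r = 0.966), Psma1 (r = 0.949) and Srxn1 (r = 0.943), and Tyrobp to Sdhc (r = 0.940), Ckb (r = 0.937) and Dhrs4 (r = 0.926). Between members, Trem2 and Tyrobp had r = 0.715, Trem1 and Trem2 had r = -0.774, and Treml4 had r = 0.714 with Trem3 and 0.649 with Trem1.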

How the data were processed

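RNA of BMDMs was sequenced with a kit that does not mark the strand. The labels name both the removal of rRNA and polyA sequencing. The authors trimmed reads (Trimmomatic 0.36), aligned them to mm10 (HISAT2) and ran HTSeq. Deposited were raw counts per transcript, not normalized, in 115140 transcripts (106335 RefSeq, 8805 Ensembl). Transcripts of a gene share reads, so the transcript with the highest total was taken for each gene. In Trem1, Trem2, Trem3 and Treml4 the second transcript held 92% to 99.3% of the count of the first. The members and lists were chosen with earlier results of these data known.

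Groups follow the column headings, and the exchange of the heading LPS- tlr4f/f-lysM-cre with LPS+ tlr4f/f is given as a second reading of the same comparisons. Tests were run with edgeR 4.0.16 in R 4.3.3 (filterByExpr, TMM, robust quasi-likelihood test, Benjamini-Hochberg adjustment over all genes tested). Each comparison used its 6 libraries, and the interaction all 12. A DEG had to pass both a fold change of 2 and an adjusted p of 0.01, limits taken from the paper, which used DESeq. Standard errors are the log2 fold change divided by the root of the F statistic. Named are the 5 members, Tlr4, Lyz2 and Il1b, the 2 DEGs with the largest change of each list and comparison (with 10 counts or more throughout the higher group), the 3 genes most like each member by Pearson's r (log2 CPM, prior count of 2), and the highest marker of each cell type over all libraries. Pathway and marker lists come from general knowledge. Treml6, Sirpb1c and Plin2 of the lists are not analysed here. Alternatives were DESeq2 1.42.0, limma 3.58.1 (voom with sample quality weights), RLE factors, summed transcripts, a filter of 1 count in all or of 10 counts in each library, a fit of all 12 libraries together, a block for the replicate number, an adjusted p limit of 0.05, and leaving out each library. The edgeR step was tested on simulated data. Counts of reads are not independent molecules, so a floor of 3 counts covers counting error only.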

Additional observations from a re-analysis of the deposited data

Results flagged for a closer look

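Among the 22 named genes tested for the interaction of genotype and LPS, 6 had an adjusted p below 0.05 by edgeR, so that their LPS+ against LPS- difference was not the same in the tlr4f/f-lysM-cre and tlr4f/f columns. Over all genes 1104 of 15792 had such a p. Card9 and Cd300lb had been named because they were DEGs of this interaction, so their part of the count follows from the choice. Cd300lf, Malt1 and Nfam1 had been named for large changes in comparisons of the same libraries. The count is therefore not independent of the choice for these genes either, and it is no measure beside the count over all genes. None of the 5 TREM members was among the 6. Card9 had an interaction of 1.05 on the log2 scale (standard error 0.127, adjusted p = 0.00255) and Cd300lb of 1.97 (standard error 0.265, adjusted p = 0.00424). For Cd300lf it was -2.74 (standard error 0.585, adjusted p = 0.0217) and for Malt1 -1.96 (standard error 0.415, adjusted p = 0.0211). Nfam1 had 1.79 (standard error 0.315, adjusted p = 0.0108) and Lyz2 had 3.18 (standard error 0.578, adjusted p = 0.0120). Of the 6, Card9 and Cd300lb also passed an adjusted p below 0.01, and both calls were lost when any of the 6 LPS+ libraries was left out. Exchanging the 2 doubtful headings leaves this contrast as it is.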

How the results depend on the processing

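The 3 DEGs among the members between the LPS+ groups were called when any library was left out (3 to 3 called). They numbered 1 (Treml4) with at least 10 counts in every library, where Trem1 and Trem3 were not tested, and 0 with all 12 libraries in a single fit (log2 fold changes 3.33, 3.06 and 2.06). For LPS+ against LPS- columns of tlr4f/f-lysM-cre, the number of members called was 0, against 2 with DESeq2 and 1 at an adjusted p below 0.05. It was 0 to 0 over the libraries left out, as in the contrasts with no member called. Of 380 member log2 fold changes under alternatives, 345 kept their direction and call, 3 gained and 3 lost the call, and 29 reversed, all uncalled. Reversed for tlr4f/f (LPS+ against LPS-) were Treml4 with voom (0.81) and with the replicate block (1.231) and Tyrobp with DESeq2 (3.601e-05), RLE factors (7.405e-05) and summed transcripts (0.00301), and in the interaction Trem2 with DESeq2 (-0.03028) and RLE factors (-0.03031) and Treml4 with voom (-0.10). Leaving out 1 library at a time, log2 fold changes that reversed ranged, for tlr4f/f (LPS+ against LPS-), from -0.01691 to 0.1367 for Trem2, from -0.803 to 2.41 for Treml4 and from -0.05431 to 0.0487 for Tyrobp. For tlr4f/f-lysM-cre they ranged from -0.02236 to 0.2905 for Trem2, from -0.3744 to 1.217 for Treml4 and from -0.1919 to 0.00238 for Tyrobp. Between the LPS- groups Trem3 ranged from -0.9836 to 5.442. In the interaction the ranges were -2.556 to 2.979 for Trem1, -0.05787 to 0.2471 for Trem2, -2.354 to 4.073 for Trem3, -2.204 to 1.476 for Treml4 and -0.1674 to 0.02543 for Tyrobp. The cause of the reversals was not tested.

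Same-numbered libraries correlated, in their deviations from the group means, by -0.0066 to 0.16 for tlr4f/f and -0.0374 to 0.0931 for tlr4f/f-lysM-cre. Differently numbered libraries had -0.161 to 0.0972 and -0.0763 to 0.111. Between the LPS- groups the same-numbered had 0.0138 to 0.472 (0.472 and 0.34 for replicates 1 and 2) and the others -0.49 to 0.203. Between the LPS+ groups the ranges were 0.0583 to 0.19 and -0.114 to 0.0447. The main tests did not take the numbers as pairs, and whether they mark pairs was not tested. With the replicate number as a block, members called stayed at 0 or, between the LPS+ groups, at 3, and the calls over all genes for tlr4f/f-lysM-cre went from 867 to 212.

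Calls over all genes also moved. For tlr4f/f the count of 0 became 464 with DESeq2, 26 with voom, 34 with no filter beyond 1 count, 75 with all 12 libraries and 92 at an adjusted p below 0.05. For tlr4f/f-lysM-cre 867 became 2006 with DESeq2 and 1985 at the adjusted p below 0.05. Between the LPS- groups 2500 became 3996, 4064 and, with all 12 libraries, 4258, and between the LPS+ groups 3165 became 2053 with all 12. The interaction's 157 became 644 with DESeq2 and 623 at the adjusted p below 0.05, and RLE factors turned its split from 93 higher and 64 lower to 64 and 80. Over the libraries left out the counts were 0 to 182 for tlr4f/f, 4 to 1180 for tlr4f/f-lysM-cre, 1039 to 1683 between the LPS- groups and 10 to 306 in the interaction.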
